A study of Mus musculus with 22 samples.

Results

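The 10 genes described here belong to the stress axis: the corticosteroid receptors Nr3c1 and Nr3c2, the receptor chaperone Fkbp5, the corticosteroid target genes Sgk1, Tsc22d3 and Zbtb16, the steroid-converting enzyme gene Hsd11b1, and the corticotropin-releasing hormone genes Crh, Crhr1 and Crhbp. They were chosen by name among the 37786 genes of the count table, and all 10 passed the count minimum that left 17524 genes for testing. RNA was sequenced from whole tissue pieces of the ACC (anterior cingulate cortex) of 22 wild-type adult male C57BL/6J mice. All mice carried ChR2(H134R)-EYFP, a light-gated cation channel delivered by an AAV5 vector into the basolateral amygdala (BLA) of both hemispheres and driven by the CaMKIIa promoter, which limits it mainly to excitatory neurons. All also had an optic fiber cannula implanted into the ACC of 1 hemisphere and were single-housed afterwards. In the 10 stimulated mice (stim) blue light was given to BLA terminals in the ACC over 9 sessions, whereas in the 12 control mice (ctrl) the light stayed off. The ACC of both hemispheres was dissected after the last session, so each stim sample pooled the hemisphere with the fiber and the other one. The comparison therefore asks whether transcripts of the stress axis in the ACC differ after repeated activation of the BLA-ACC pathway.

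Total counts ranged from 23090483 to 43668462 per mouse. The labels number the libraries from 1 to 23 without a number 7. Libraries 1 to 11 (6 ctrl, 4 stim) and 12 to 23 (6 ctrl, 6 stim) stood apart across the transcriptome, with 68.1% of all genes differing between these runs of library numbers at an adjusted p under 0.05 (edgeR). The labels do not say what the runs are, so the log2 fold change of each of the 10 genes is given over all mice and within each run. The tissue carried neuronal markers in every mouse, with a summed level of the excitatory neuron markers between 3220 and 7846 CPM (counts scaled to a common library size). The summed level of the oligodendrocyte markers ranged from 2399 to 5878 CPM in stim and from 3262 to 20024 CPM in ctrl, and control replicates 9 and 11 had the highest scores.

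Corticosteroids released by the adrenal gland reach neurons and glia and bind intracellular receptors that move to the nucleus and regulate target genes. The mineralocorticoid receptor binds corticosterone with high affinity and is largely occupied at rest, whereas the glucocorticoid receptor has a lower affinity and is engaged as hormone levels rise during stress. Upstream of this axis, corticotropin-releasing hormone acts as the hypothalamic trigger of the hormonal stress response. In the cortex the same peptide is made by local inhibitory interneurons and signals through its receptor on nearby neurons, with a binding protein that sequesters it.

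Per kilobase of exon, the 10 transcripts spanned a narrow range of levels in the ACC, here as RPKM, the CPM divided by the exonic length in kilobases (mean ± SD over 22 mice). Tsc22d3 (28.7 ± 4.69 RPKM) and Crhbp (27.1 ± 5.36 RPKM) were the highest and were not separable, since Tsc22d3 was above Crhbp in 12 of 22 mice. Nr3c1 followed at 15.9 ± 2.28 RPKM and was below Crhbp and above Sgk1 in all 22 mice. Sgk1 (12.8 ± 1.62 RPKM), Hsd11b1 (11.8 ± 4.46 RPKM) and Crhr1 (11.1 ± 1.64 RPKM) overlapped, and their order held in only 11 and 12 of 22 mice. Every mouse had more Crhr1 than Crh (5.43 ± 0.82 RPKM), with ranges that did not overlap. At the low end were Crh, Zbtb16 (4.89 ± 0.56 RPKM), Nr3c2 (4.00 ± 0.98 RPKM) and Fkbp5 (3.00 ± 0.65 RPKM). The order of Crh over Zbtb16 held in 14 of 22 mice, that of Zbtb16 over Nr3c2 in 19 and that of Nr3c2 over Fkbp5 in 20. The glucocorticoid receptor transcript was thus 4.13 ± 0.74 times as abundant as the mineralocorticoid receptor transcript (ratio per mouse, SD, n = 22), and Crhbp 5.01 ± 0.70 times as abundant as the peptide gene Crh.

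With group as the only term of the fit, 0 of the 10 genes had an adjusted p under 0.05 and 0 had an unadjusted p under 0.05 (edgeR quasi-likelihood test). Over all genes tested, the shares were 0% adjusted and 3.61% unadjusted. In the same design the DESeq2 Wald test called 3 genes after adjustment, and 0 of the 10 was among them. Of the 10 genes, 4 were higher and 6 lower in stim, and their median log2 fold change was -0.04, against 0.01 over all genes. With the run of library numbers added to the fit, the unadjusted share rose to 11.5% of all genes and the adjusted share stayed at 0%. In that fit 2 of the 10 genes had an unadjusted p under 0.05, Nr3c2 (lower) and Crhbp (higher), a count from which nothing particular to the 10 genes is read. In the other fits used below, 2 of the 10 genes had an unadjusted p under 0.05 with the run and the oligodendrocyte score (7.76% of all genes), in DESeq2 with the run (12.5%), and without control replicates 9 and 11 both with the run (8.16%) and within library numbers 12 to 23 (4.99%). In limma voom with quality weights 3 of the 10 did, both with group only (10.6%) and with the run (16.3%).

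**Figure D1:**
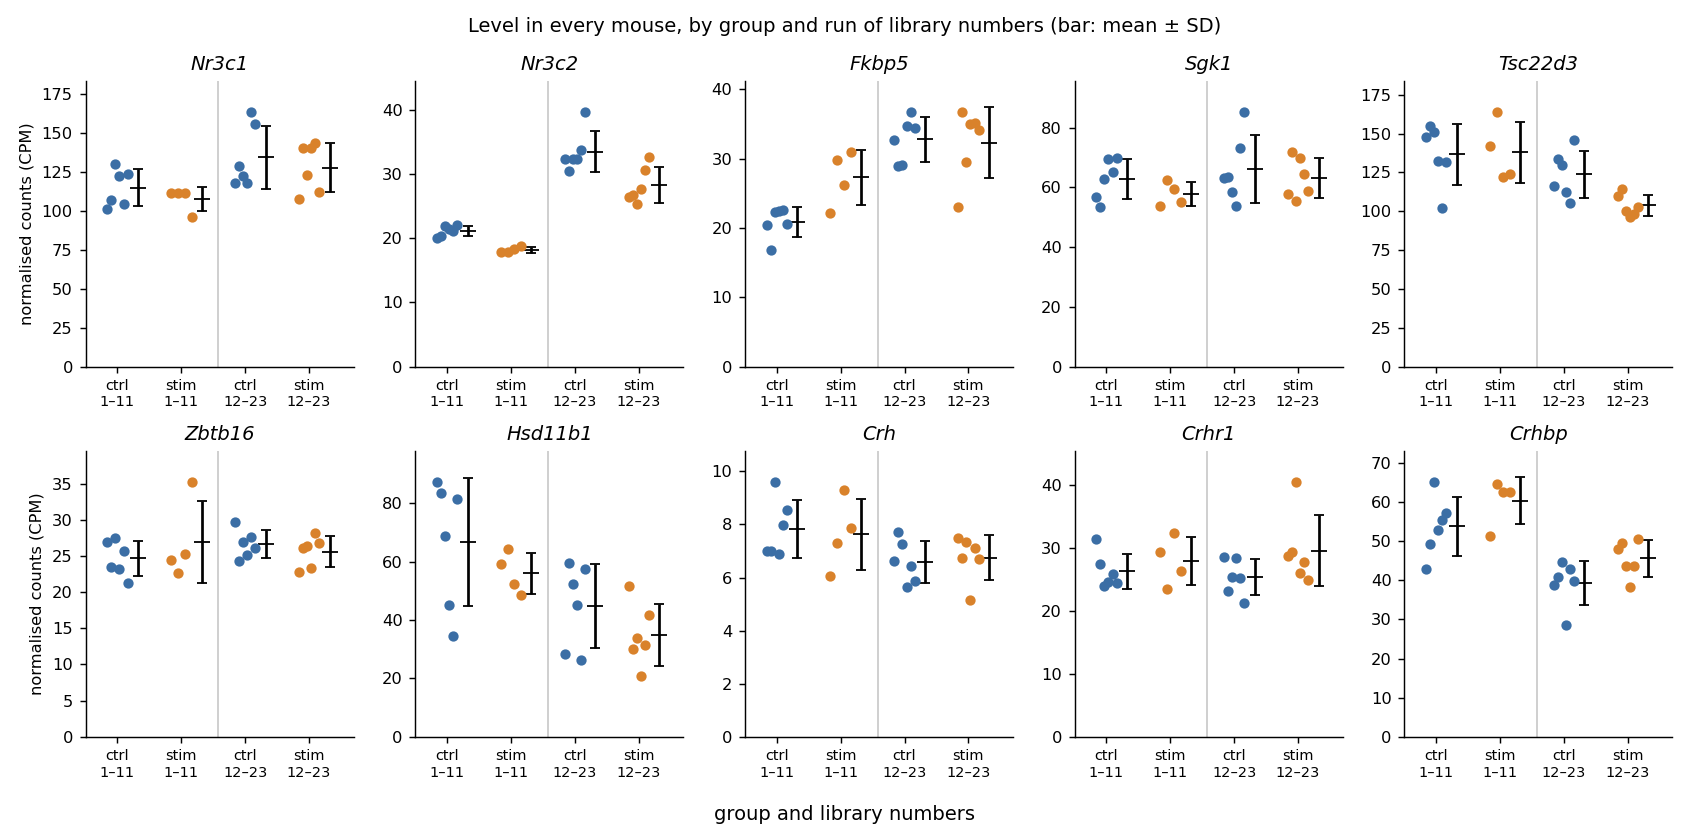
Normalised counts (CPM) of the 10 genes in each of the 22 mice, with 1 panel per gene and the mice divided by group (blue, ctrl, orange, stim) and by library numbers 1 to 11 and 12 to 23. Points are mice and bars give the mean ± SD, and Nr3c2 is lower in stim on both sides of the grey line while both groups shift upwards together from the first run to the second.

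Nr3c2 (ENSMUSG00000031618, chromosome 8 of GRCm38 from 76899442 to 77245012, + strand) encodes the mineralocorticoid receptor, and it had the smallest p of the 10 genes once the run was in the fit. Over all mice it ranged from 20.0 to 39.7 CPM in ctrl (median 26.2) and from 17.8 to 32.6 CPM in stim (median 25.9). These ranges overlapped widely, and the group-only log2 fold change was -0.17 (95% interval -0.47 to 0.13, unadjusted p = 0.243, edgeR). Most of this spread lay between the runs, since Nr3c2 was higher in library numbers 12 to 23 than in 1 to 11 by 0.65 on the log2 scale (standard error 0.06, edgeR adjusted p = 1.45e-10), without overlap between the runs. In library numbers 1 to 11, ctrl ranged from 20.0 to 22.0 CPM (median 21.3), and the 4 stim mice had 17.8, 17.9, 18.4 and 18.8 CPM. All 4 stim mice were therefore below every ctrl mouse of that run. In library numbers 12 to 23, ctrl ranged from 30.5 to 39.7 CPM (median 32.4) and stim from 25.3 to 32.6 CPM (median 27.1). Here 4 of the 6 stim mice lay below all 6 ctrl mice and the ranges overlapped at their edges.

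The log2 fold change of Nr3c2 was -0.20 within library numbers 1 to 11 (unadjusted p = 0.0259, edgeR) and -0.28 within 12 to 23 (unadjusted p = 0.00679), runs in which 5.56% and 12.4% of all genes had an unadjusted p under 0.05. With the run as a covariate it was -0.23 (standard error 0.06, 95% interval -0.35 to -0.12), a level in stim of 0.851 times that in ctrl. By p it ranked 21 among 17524 genes, with an unadjusted p of 0.000297 and an adjusted p of 0.241 (edgeR, Benjamini-Hochberg), so it did not pass the threshold. With the same covariate it did pass in the DESeq2 Wald test (log2 fold change -0.23, adjusted p = 0.0369), which called 0.192% of the genes with an adjusted p, and not in limma voom with quality weights (-0.24, adjusted p = 0.0859), which called 0.00571%. The DESeq2 and voom fits with the run, and the fits with the run that leave out mice, were added after seeing the data. Leaving out each mouse in turn kept the edgeR value with the run between -0.26 and -0.20. Without control replicates 9 and 11 it was -0.21 (unadjusted p = 0.000991), and with the oligodendrocyte score as a further covariate -0.20 (unadjusted p = 0.0026). In bulk tissue, fewer cells that carry a transcript and less of it per cell cannot be told apart. A stretch of 247 exonic bases of Nr3c2 is shared with the antisense gene Gm10649, which had 181 counts over all mice, against 578 to 1327 counts of Nr3c2 per mouse.

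Nr3c1 (ENSMUSG00000024431, chromosome 18 from 39410545 to 39519421, - strand) encodes the glucocorticoid receptor. It ranged from 101 to 164 CPM in ctrl (median 123) and from 95.8 to 144 CPM in stim (median 112). The groups overlapped over most of this range, and the log2 fold change was -0.06 (95% interval -0.25 to 0.14), or -0.08 with the run (unadjusted p = 0.254, edgeR). Without control replicate 8, which had the highest level, these values were -0.02 and -0.05. With the run the 95% interval was -0.23 to 0.06. Within library numbers 1 to 11 and 12 to 23 the log2 fold change was -0.08 and -0.11 (unadjusted p = 0.38 and 0.321). Nr3c1 was higher in library numbers 12 to 23 by 0.24 (edgeR adjusted p = 0.00496). The ratio of Nr3c1 to Nr3c2 was 4.74 ± 0.42 in library numbers 1 to 11 (SD, n = 10) and 3.62 ± 0.53 in 12 to 23 (SD, n = 12). Within library numbers 1 to 11 it was 4.57 ± 0.33 in ctrl (SD, n = 6) and 4.98 ± 0.47 in stim (SD, n = 4), and within 12 to 23 it was 3.38 ± 0.39 in ctrl (SD, n = 6) and 3.85 ± 0.59 in stim (SD, n = 6), differences of about the size of the spread.

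Fkbp5 (ENSMUSG00000024222, chromosome 17 from 28399094 to 28517527, - strand) encodes a co-chaperone of Hsp90 that lowers the affinity of the glucocorticoid receptor for its hormone and is itself induced by the receptor. It ranged from 16.9 to 36.8 CPM in ctrl (median 25.8) and from 22.1 to 36.7 CPM in stim (median 30.4). Over all mice the groups overlapped, with 8 of 10 stim mice above the ctrl median, and the log2 fold change was 0.17 (95% interval -0.10 to 0.45, unadjusted p = 0.207, edgeR). The runs differed in what they showed. In library numbers 1 to 11, ctrl ranged from 16.9 to 22.6 CPM (median 21.4), and the 4 stim mice had 22.1, 26.2, 29.8 and 31.0 CPM. All 4 were above the ctrl median and 3 were above every ctrl mouse, a log2 fold change of 0.40 (95% interval 0.15 to 0.65, unadjusted p = 0.00399, edgeR). In library numbers 12 to 23, ctrl ranged from 28.9 to 36.8 CPM (median 33.6) and stim from 23.0 to 36.7 CPM (median 34.6). The groups lay on top of each other there, with a log2 fold change of -0.06 (95% interval -0.29 to 0.18). The difference between these effects was -0.41 (standard error 0.16, unadjusted p = 0.0189, adjusted p = 0.575, edgeR interaction term), and 8.01% of all genes had an interaction with an unadjusted p under 0.05. Fkbp5 was higher in library numbers 12 to 23 by 0.47 on the log2 scale (edgeR adjusted p = 5.4e-05).

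**Figure D2:**
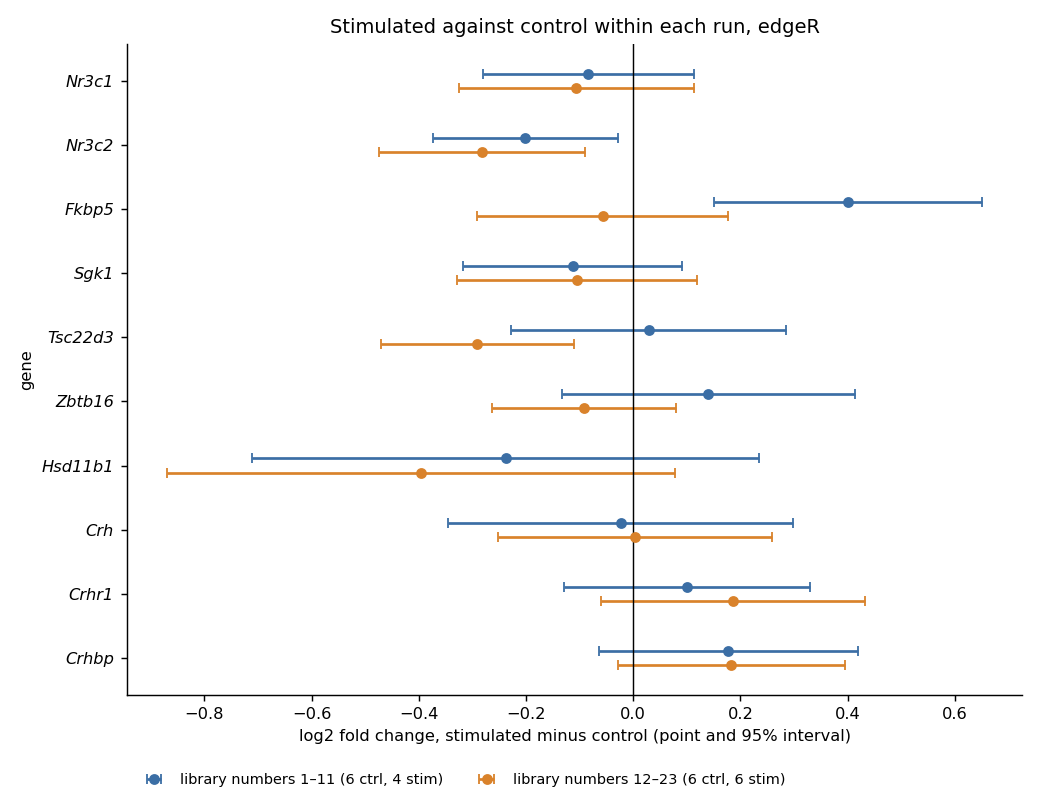
Log2 fold change of the 10 genes, stim minus ctrl, fitted with edgeR within library numbers 1 to 11 (blue, 6 ctrl and 4 stim) and within 12 to 23 (orange, 6 ctrl and 6 stim), with points for the estimates and lines for the 95% intervals. Nr3c2 lies below 0 in both runs, Fkbp5 is above 0 at 0.40 in the first run only, and Tsc22d3 is below 0 at -0.29 in the second only.

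The 3 target genes are induced when corticosteroid receptors bind DNA. Sgk1 encodes a kinase that regulates ion channels and transporters, Tsc22d3 encodes the anti-inflammatory leucine zipper protein GILZ, and Zbtb16 encodes the zinc finger transcription factor PLZF. The receptors bind a palindrome made of AGAACA and then TGTTCT with 3 bases of any kind between them, or a single hexamer of the same sequence. RefSeq promoter windows of GRCm38.p6, 250 bases before to 50 after a start site, were given for 7 of the 10 genes. Both strands of 14 windows were searched, with overlapping matches counted. The hexamer was found in 4 of these windows, 3 of Sgk1 and 1 of Tsc22d3, while 19.0% of the 32851 windows of all genes hold it. The full palindrome was found in 1 window of Sgk1, and in 3 windows in all (0.00913%). That window and the one of Tsc22d3 are shown because they belong to the target genes followed below, with the hexamers in capitals.
Sgk1, chr10:21993640-21993939, + strand: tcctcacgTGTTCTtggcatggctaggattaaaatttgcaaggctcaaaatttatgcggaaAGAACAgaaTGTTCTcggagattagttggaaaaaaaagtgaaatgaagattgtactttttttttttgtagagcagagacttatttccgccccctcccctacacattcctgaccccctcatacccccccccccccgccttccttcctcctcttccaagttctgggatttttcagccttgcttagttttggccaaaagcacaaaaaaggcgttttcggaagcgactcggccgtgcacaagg
Tsc22d3, chrX:140600473-140600772, - strand: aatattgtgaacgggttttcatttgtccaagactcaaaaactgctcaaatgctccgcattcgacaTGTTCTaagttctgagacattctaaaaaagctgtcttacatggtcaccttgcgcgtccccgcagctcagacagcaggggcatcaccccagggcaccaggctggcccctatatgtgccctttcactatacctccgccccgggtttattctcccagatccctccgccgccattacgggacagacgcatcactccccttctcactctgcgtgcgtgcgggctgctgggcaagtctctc
The palindrome of Sgk1 begins 189 bases before the start site of its own window and 965 bases before the next annotated start of the gene, at position 21994666. The windows of Nr3c2, Fkbp5, Hsd11b1, Crhr1 and Crhbp held neither form, which says only that these letters are not in those windows.

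Sgk1 (ENSMUSG00000019970, chromosome 10 from 21882184 to 21999903, + strand) ranged from 53.4 to 85.4 CPM in ctrl (median 63.3) and from 53.9 to 71.8 CPM in stim (median 59.2). All stim mice lay within the ctrl range, and the log2 fold change was -0.08 (95% interval -0.26 to 0.09), or -0.10 with the run (unadjusted p = 0.199, edgeR). Without control replicate 9, which had the highest level, these values were -0.04 and -0.05. Within library numbers 1 to 11 and 12 to 23 the log2 fold change was -0.11 and -0.10 (unadjusted p = 0.257 and 0.336). Unlike most genes, Sgk1 did not differ between the runs at an adjusted p under 0.05 (log2 difference 0.10, edgeR adjusted p = 0.236).

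Tsc22d3 (ENSMUSG00000031431, chromosome X from 140539528 to 140600659, - strand) ranged from 102 to 155 CPM in ctrl (median 132) and from 96.5 to 164 CPM in stim (median 112). Here 8 of 10 stim mice were below the ctrl median, with a log2 fold change of -0.15 (95% interval -0.36 to 0.06, unadjusted p = 0.156, edgeR). In library numbers 1 to 11, ctrl ranged from 102 to 155 CPM (median 140), and the 4 stim mice had 122, 124, 142 and 164 CPM. They were spread across the ctrl range and its upper edge (log2 fold change 0.03). In library numbers 12 to 23, ctrl ranged from 105 to 146 CPM (median 123) and stim from 96.5 to 114 CPM (median 102). All 6 stim mice were below the ctrl median and 4 were below every ctrl mouse, a log2 fold change of -0.29 (95% interval -0.47 to -0.11, unadjusted p = 0.00354, edgeR). The difference between the effects in the 2 runs did not pass (-0.27, unadjusted p = 0.081, edgeR interaction term). The oligodendrocyte score moved in the same way: in library numbers 12 to 23 it was 0.56 ± 1.03 in ctrl (SD, n = 6) and -0.40 ± 0.30 in stim (SD, n = 6), and in 1 to 11 it was -0.10 ± 0.23 (SD, n = 6) and -0.10 ± 0.15 (SD, n = 4). Without control replicates 9 and 11 the log2 fold change of Tsc22d3 within library numbers 12 to 23 was -0.19 (unadjusted p = 0.0421, edgeR). Over all mice it was -0.13 with the run (unadjusted p = 0.094), and -0.07 without these 2 controls (unadjusted p = 0.391). With the run and the score in the fit over all mice it was -0.03 (unadjusted p = 0.686), and the part of the marker genes in the result was not tested further.

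Zbtb16 (ENSMUSG00000066687, chromosome 9 from 48654297 to 48836222, - strand) ranged from 21.2 to 29.7 CPM in ctrl (median 25.9) and from 22.7 to 35.2 CPM in stim (median 25.6). Both medians were nearly equal, and stim replicate 4 was the only stim mouse above every ctrl mouse. The log2 fold change was 0.03 (95% interval -0.14 to 0.20, unadjusted p = 0.754, edgeR) and -0.03 without that mouse. It was 0.14 within library numbers 1 to 11, which hold that mouse, and -0.09 within 12 to 23 (unadjusted p = 0.288 and 0.278). Of the target genes, Tsc22d3 had an unadjusted p under 0.05 within 1 run, and Sgk1 and Zbtb16 had none in the 5 edgeR fits (group only, with the run, with the run and the oligodendrocyte score, and within each run).

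Hsd11b1 (ENSMUSG00000016194, chromosome 1 from 193221634 to 193264075, - strand) encodes the enzyme that regenerates active corticosterone from its inert metabolite inside cells. It varied more among mice than any other of the 10 genes, with a standard deviation of 0.47 on the log2 scale within group and run. The median over the 500 genes nearest in level was 0.17, and 79.4% of all genes had a lower value. Hsd11b1 ranged from 26.3 to 87.3 CPM in ctrl (median 54.8) and from 20.7 to 64.2 CPM in stim (median 44.99). In all, 8 of 10 stim mice were below the ctrl median while 9 of 10 lay inside the ctrl range, and the log2 fold change was -0.36 (95% interval -0.81 to 0.08, unadjusted p = 0.107, edgeR). It was -0.31 with the run (unadjusted p = 0.0766), -0.24 within library numbers 1 to 11 and -0.40 within 12 to 23. With the run and the oligodendrocyte score it was -0.10 (95% interval -0.44 to 0.24), and without control replicates 9 and 11 it was -0.18 with the run (unadjusted p = 0.305). Hsd11b1 was lower in library numbers 12 to 23 than in 1 to 11 by 0.62 on the log2 scale (edgeR adjusted p = 0.00189).

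**Figure D3:**
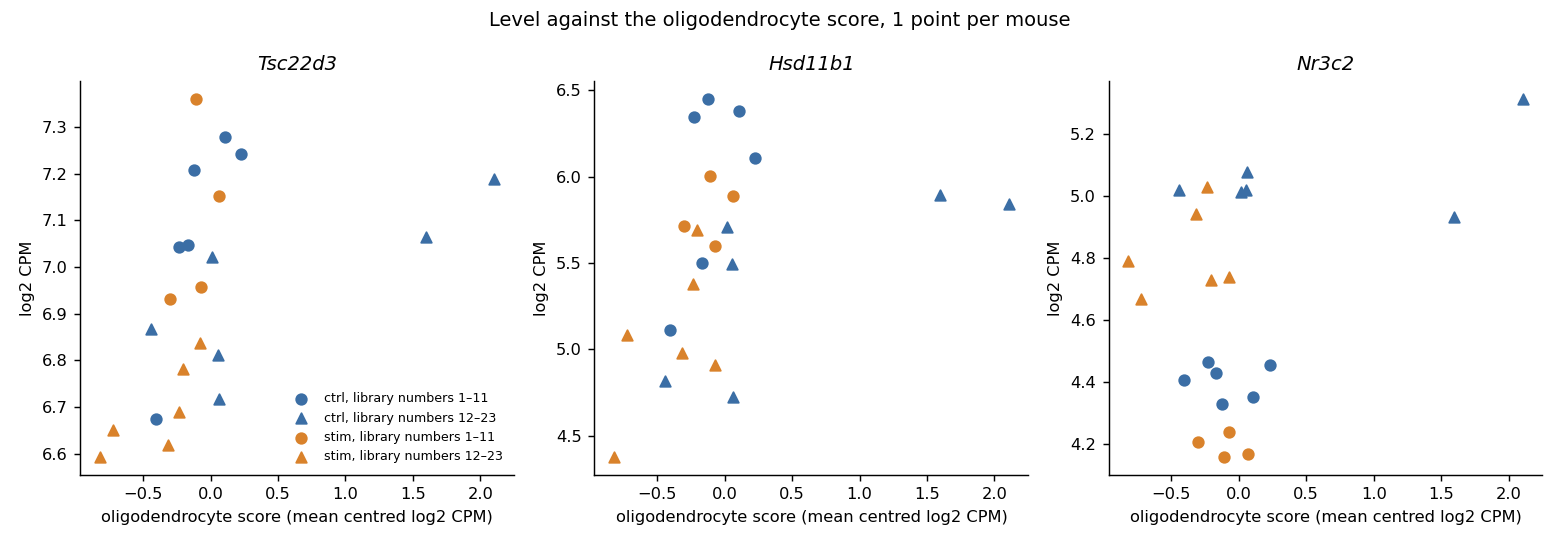
Level (log2 CPM) of Tsc22d3, Hsd11b1 and Nr3c2 against the oligodendrocyte score, the mean centred log2 CPM of 12 marker genes, with 1 point per mouse (blue, ctrl, orange, stim, circles, library numbers 1 to 11, triangles, 12 to 23). Tsc22d3 and Hsd11b1 climb with the score on the left of the plot, Nr3c2 falls into bands set by run and group, and 2 ctrl mice stand alone with scores of 1.60 and 2.10.

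Over the mice, with group and run removed by centring, Tsc22d3 rose with the oligodendrocyte score (Pearson r = 0.59, permutation p = 0.00039, adjusted p = 0.0039 over the 10 genes, Spearman rho = 0.68, permutation p = 0.00018). Without the 2 mice whose centred Tsc22d3 level lay farthest from its median, chosen by the gene and not by the score, r was 0.68. Within library numbers 1 to 11 r was 0.73, and within 12 to 23 it was 0.77. For Hsd11b1 r was 0.55 (rho = 0.54, permutation p = 0.0237, adjusted p = 0.0789), and for Crhr1 it was -0.48 (rho = -0.45, permutation p = 0.0144, adjusted p = 0.072), so neither passed after adjustment. For the other 7 genes r lay between -0.14 and 0.35, with adjusted permutation p-values from 0.563 to 0.791. The share of all genes that follow the score was not counted, so nothing particular to the 10 genes is read from these values. For Nr3c2 r was 0.35 and became -0.13 without the 2 mice whose centred Nr3c2 level lay farthest from its median. In the group-only fit all 12 oligodendrocyte markers were lower in stim with an unadjusted p under 0.05, against 3.61% of all genes (edgeR). Their median log2 fold change was -0.73, and 0 of the 12 was at 0 counts in all mice of a group. Without control replicates 9 and 11 all 12 were still lower, but 0 of the 12 had an unadjusted p under 0.05 (edgeR). The median log2 fold change was then -0.16, so its size and the calls depended on these controls. The share of all genes with such a p was not counted in that fit. Within library numbers 1 to 11, 6 markers were higher and 6 lower in stim, at a median of -0.01. Within library numbers 12 to 23, which hold both of these controls, all 12 markers were lower, at a median of -1.31 (edgeR). Each had an unadjusted p under 0.05, against 12.4% of all genes.

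Crh (ENSMUSG00000049796, chromosome 3 from 19693401 to 19695396, - strand), the peptide gene, ranged from 5.63 to 9.61 CPM in ctrl (median 6.99) and from 5.15 to 9.29 CPM in stim (median 7.21). The groups coincided, with a log2 fold change of -0.02 (95% interval -0.24 to 0.20, unadjusted p = 0.843, edgeR) and of 0.00 with the run (95% interval -0.19 to 0.19). Within the runs it was -0.02 and 0.00 (unadjusted p = 0.877 and 0.977). With 113 to 359 counts per mouse it was the least counted of the 10 genes. It was lower in library numbers 12 to 23 by 0.22 on the log2 scale (edgeR adjusted p = 0.0393).

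Crhr1 (ENSMUSG00000018634, chromosome 11 from 104132855 to 104175523, + strand), the receptor of the peptide, ranged from 21.3 to 31.4 CPM in ctrl (median 25.4) and from 23.5 to 40.5 CPM in stim (median 28.2). In all, 8 of 10 stim mice were above the ctrl median and 2 were above every ctrl mouse. The log2 fold change was 0.16 (95% interval -0.02 to 0.35, unadjusted p = 0.0845, edgeR), and 0.16 with the run (unadjusted p = 0.0614). In library numbers 1 to 11 it was 0.10 (unadjusted p = 0.366) and in 12 to 23 it was 0.19 (unadjusted p = 0.129). Without stim replicate 6, which had the highest level, it was 0.10 in both fits, and with the run and the oligodendrocyte score it was 0.08 (unadjusted p = 0.354). In limma voom with quality weights the log2 fold change was 0.23 with group only (unadjusted p = 0.0253, adjusted p = 0.411). With the run it was 0.18 in limma voom (unadjusted p = 0.0467, adjusted p = 0.299). Of all genes, 10.6% and 16.3% had an unadjusted p under 0.05 in these 2 fits. The level of Crhr1 did not follow the run of library numbers (log2 difference 0.01).

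Crhbp (ENSMUSG00000021680, chromosome 13 from 95431371 to 95444924, - strand), whose product binds and sequesters the peptide, ranged from 28.5 to 65.2 CPM in ctrl (median 43.9) and from 38.3 to 64.7 CPM in stim (median 50.2). All stim mice were inside the ctrl range, and the group-only log2 fold change was 0.15 (95% interval -0.11 to 0.40, unadjusted p = 0.247, edgeR). Crhbp was lower in library numbers 12 to 23 by 0.43 on the log2 scale (edgeR adjusted p = 2.01e-05). In library numbers 1 to 11, ctrl ranged from 43.0 to 65.2 CPM (median 54.2), and the 4 stim mice had 51.5, 62.6, 62.7 and 64.7 CPM. In library numbers 12 to 23, ctrl ranged from 28.5 to 44.8 CPM (median 40.4) and stim from 38.3 to 50.7 CPM (median 45.8). Stim mice were above the ctrl median in 3 of 4 and 5 of 6 cases, and in the second run 3 stim mice were above every ctrl mouse. The log2 fold change was 0.18 in each run (unadjusted p = 0.137 and 0.0857, edgeR). With the run in the fit the log2 fold change was 0.19 (95% interval 0.03 to 0.35, unadjusted p = 0.0191, adjusted p = 0.363, edgeR), or 1.14 times the ctrl level. It was 0.21 with the oligodendrocyte score added (unadjusted p = 0.0192), and between 0.15 and 0.22 as each mouse was left out. Control replicate 7, the ctrl mouse with the lowest level, gave the value of 0.15 when left out (unadjusted p = 0.037 at most over these fits). The ratio of Crhbp to Crh per kilobase was 4.72 ± 0.55 in ctrl (SD, n = 12) and 5.35 ± 0.72 in stim (SD, n = 10). Within library numbers 1 to 11 it was 5.05 ± 0.37 in ctrl (SD, n = 6) and 5.88 ± 0.68 in stim (SD, n = 4), and within 12 to 23 it was 4.39 ± 0.52 in ctrl (SD, n = 6) and 5.00 ± 0.54 in stim (SD, n = 6).

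**Figure D4:**
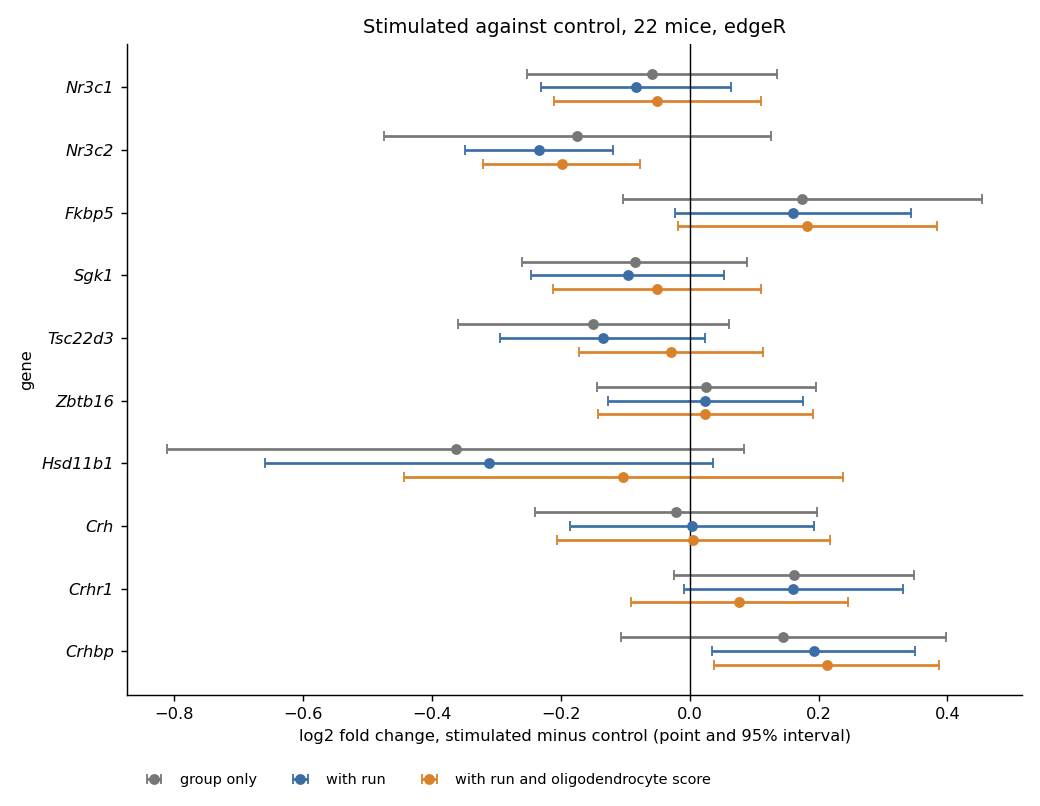
Log2 fold change of the 10 genes, stim minus ctrl, over 22 mice in 3 edgeR fits, with group only (grey), with the run of library numbers (blue) and with the run and the oligodendrocyte score (orange), as points with 95% intervals. The interval of Nr3c2 narrows and leaves 0 once the run is included, that of Crhbp does so at 0.19, and Tsc22d3 and Hsd11b1 move towards 0 with the score.

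Between the runs of library numbers, 7 of the 10 genes differed at an adjusted p under 0.05 (edgeR), close to the 68.1% of all genes given above. Nr3c1, Nr3c2 and Fkbp5 were higher in numbers 12 to 23, whereas Tsc22d3, Hsd11b1, Crh and Crhbp were lower. Sgk1, Zbtb16 and Crhr1 differed by 0.10 or less on the log2 scale. The share is that of the background, and the shift of Crh missed the threshold in limma voom (-0.19, adjusted p = 0.0586). Within group and run, Nr3c2 was the steadiest of the 10 genes, with a standard deviation of 0.11 on the log2 scale, lower than that of all but 4.42% of the genes.

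The 10 genes make 45 pairs, and their variation among mice was compared after centring within group and run. In 3 pairs the correlation passed at an adjusted permutation p under 0.05, and all 3 were positive. Over all pairs of the genes tested, 3.51% had an r at least as far from 0 as the weakest of these 3, so strong correlations were common on these values and nothing particular to the 10 genes is read from the count. Tsc22d3 and Hsd11b1 varied together (r = 0.73, rho = 0.71, permutation p = 0.00023, adjusted p = 0.00742). This was also seen within the runs (r = 0.80 and 0.71) and without the 2 mice farthest from the median of Tsc22d3 (r = 0.67). In each pair the 2 mice left out were chosen by the first gene named, so they can differ between pairs. Crh and Crhbp, the peptide and its binding protein, also varied together (r = 0.70, rho = 0.59, permutation p = 0.00033, adjusted p = 0.00742). Within the runs r was 0.79 and 0.63, and without the 2 mice farthest from the median of Crh it was 0.61. For this pair the adjusted permutation p of rho was 0.0609. The glucocorticoid receptor Nr3c1 and its target Sgk1 made the third pair (r = 0.76, rho = 0.73, permutation p = 0.00063, adjusted p = 0.00945). Here r was 0.58 and 0.83 within the runs and 0.75 without the 2 mice farthest from the median of Nr3c1. For Nr3c1 and the other target genes r was 0.09 with Tsc22d3 (adjusted permutation p = 0.88) and -0.16 with Zbtb16 (adjusted permutation p = 0.716). Fkbp5 ran against Hsd11b1, with r of -0.56 (adjusted permutation p = 0.0642) and rho of -0.66 (adjusted permutation p = 0.0227). Fkbp5 and Sgk1 likewise passed by rho (0.59, adjusted permutation p = 0.0492) and not by r (0.52, adjusted permutation p = 0.0646), so both calls depended on the measure. Crhr1 ran against Nr3c2 (r = -0.59, permutation p = 0.00856, adjusted p = 0.0642) and against Sgk1 (r = -0.55, permutation p = 0.00758, adjusted p = 0.0642), neither of which passed. Over all pairs 24 were positive, with a median r of 0.03.

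**Figure D5:**
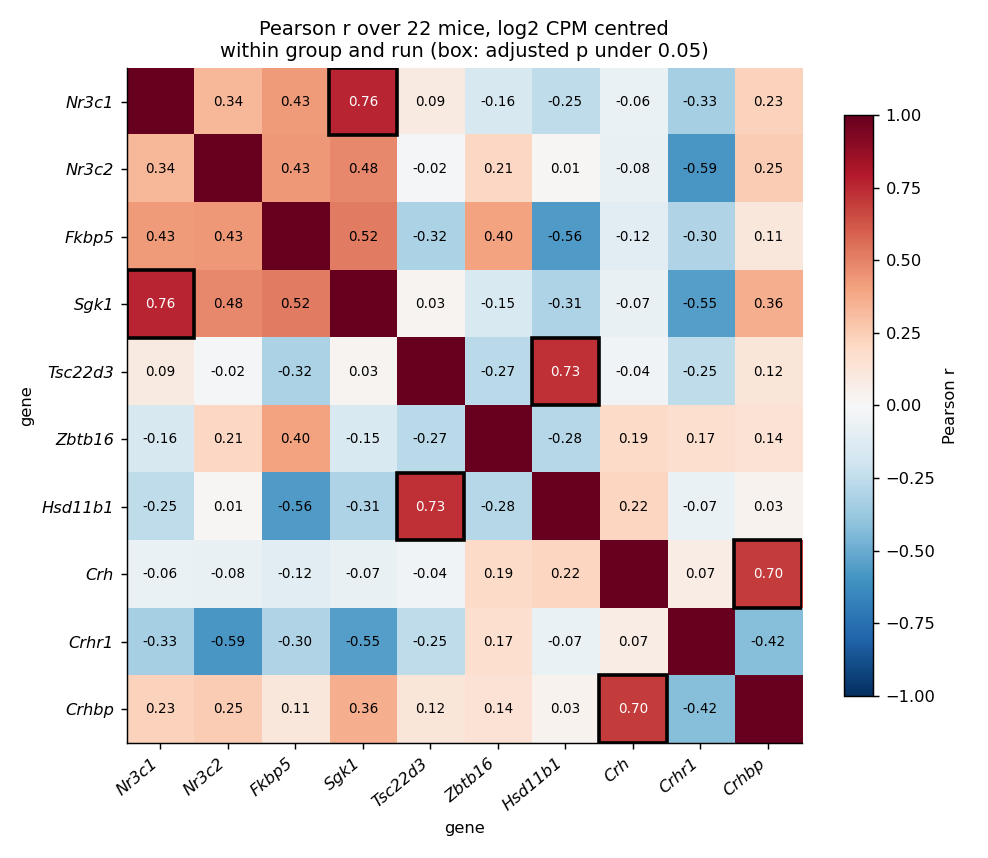
Pearson r between the levels of the 10 genes over 22 mice, on log2 CPM centred within group and run, with red for positive and blue for negative values and a black box where the adjusted permutation p is under 0.05. The 3 boxed pairs are Nr3c1 with Sgk1 (0.76), Tsc22d3 with Hsd11b1 (0.73) and Crh with Crhbp (0.70), and the block of receptors, Fkbp5 and Sgk1 in the upper left is positive throughout.

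Among all genes tested, those whose level was most like that of each gene were named by Pearson r on the same centred values over 22 mice, as a description without a test. For Crhbp they were Sst (r = 0.88, rho = 0.66), which encodes the interneuron peptide somatostatin, Bnip1 (rho = 0.73) and Timm50 (rho = 0.71). For Hsd11b1 they were Srebf1 (r = 0.94), which encodes a transcription factor of lipid synthesis, Siva1 and Tmem250-ps. For Tsc22d3 they were Insig1 (r = 0.85), which encodes a regulator of sterol synthesis, Tmem143 and Dbt. Those of Sgk1 were Fbxo7 (r = 0.91), Gpr155 and Zdhhc9, and those of Nr3c1 were Rnf146 (r = 0.87), Rb1cc1 and Tmppe. Fkbp5 was most like Ddx46 (r = 0.85), Sec24c and Xpo5, and Crh was most like Banf1 (r = 0.81), Polr2j and Mrps23. Crhr1 was most like Adcy2 (r = 0.78), which encodes an adenylyl cyclase, Bean1 and Lzts1. The 2 genes with the loosest neighbours were Nr3c2, with Gm14025 (r = 0.75), Dsg2 and Dennd2d, and Zbtb16, with Pggt1b (r = 0.75), Slit3 and 5730422E09Rik. For Gm14025 and Nr3c2 r was 0.37 within library numbers 1 to 11 and 0.84 within 12 to 23.

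Further genes of the pathway were counted beside all genes tested. Of these, 3.61% had an unadjusted p under 0.05 with group only and 11.5% with the run (edgeR). Nothing particular to the pathway is read from counts near these shares. Of 32 other corticosteroid-responsive genes, 18 were higher and 14 lower in stim (median log2 fold change 0.02), and 0 had an unadjusted or adjusted p under 0.05 (edgeR). With the run in the fit, 1 was higher and 1 lower at an unadjusted p under 0.05, against 11.5% of all genes. They were Cebpb, which encodes a transcription factor of the acute-phase response (log2 fold change 0.25, unadjusted p = 0.00448), and Arrdc3, which encodes an arrestin-like adaptor protein (-0.32, unadjusted p = 0.0146). Over all mice Cebpb ranged from 6.13 to 14.7 CPM in ctrl and from 6.44 to 20.2 CPM in stim, and Arrdc3 from 25.8 to 113 CPM in ctrl and from 22.3 to 70.9 CPM in stim, so both overlapped. Values that missed the threshold were spread widely in genes with low counts, such as Lcn2, a secreted iron-carrier protein gene (-0.91, unadjusted p = 0.233), with 0.120 to 9.01 CPM in ctrl and 0.0382 to 4.29 CPM in stim. The classical targets Per1 (0.14) and Dusp1 (0.06) had unadjusted p-values of 0.528 and 0.71 in the group-only fit.

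Of 16 receptor chaperones and coregulators, 12 were higher and 4 lower (median log2 fold change 0.04). With group only 0 of them had an unadjusted p under 0.05, against 3.61% of all genes (edgeR). With the run, Stub1, which encodes a ubiquitin ligase that acts on chaperone clients, was the only one with an unadjusted p under 0.05 (0.13, unadjusted p = 0.0116, edgeR). In that fit 11.5% of all genes had such a p. Among 12 genes of corticosteroid synthesis, conversion and transport, 7 passed the count minimum, 3 of them higher and 4 lower (median log2 fold change -0.07). Cyp11a1, which encodes the enzyme of the first step of steroid synthesis, was the only gene of these 7 with an unadjusted p under 0.05. It was at -0.38 with group only (unadjusted p = 0.0482) and -0.41 with the run (unadjusted p = 0.0247, edgeR). Of all genes, 3.61% and 11.5% had an unadjusted p under 0.05 in these 2 fits. Cyp11a1 was counted 74 to 223 times per ctrl mouse and 58 to 182 times per stim mouse. Hsd11b2, the enzyme that inactivates corticosterone in cells selective for aldosterone, was listed at 0 counts in 14 of 22 mice and reached at most 5, and was not tested. Of 13 other stress peptides and receptors, 8 were tested, 6 of them higher and 2 lower (median log2 fold change 0.07). With group only 0 of the 8 had an unadjusted p under 0.05, against 3.61% of all genes (edgeR). With the run, Oxt, the oxytocin gene, had one (0.96, unadjusted p = 0.0338, edgeR), on 0 to 92 counts per mouse. That was 1 of the 8, against 11.5% of all genes. Pomc, which encodes the precursor of the pituitary hormone ACTH, had a log2 fold change of -1.06 (unadjusted p = 0.101, edgeR) over 0.864 to 54.7 CPM in ctrl and 1.22 to 9.43 CPM in stim. The urocortin genes Ucn, Ucn2 and Ucn3, whose products share receptors with the peptide of Crh, reached at most 6, 4 and 3 counts per mouse and were not tested.

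Markers of other cell types were counted for the same comparison. None of the astrocyte (8 genes, 8 lower), microglia (8 genes, 6 higher), endothelial (8 genes, 4 higher), excitatory neuron (7 genes, 7 higher), inhibitory neuron (9 genes, 5 higher) and striatal lists (6 genes, 5 higher) had a member with an unadjusted p under 0.05 in the group-only fit. With the run, Slc17a7 and Neurod2 of excitatory neurons (0.16 and 0.23) and Slc32a1 and Sst of inhibitory neurons (0.31 and 0.24) were higher at an unadjusted p under 0.05 (edgeR), in a fit where 11.5% of all genes had one. In that fit 5 excitatory markers were higher and 2 lower, and 6 inhibitory markers were higher and 3 lower, with Pvalb of another interneuron class at -0.26 (unadjusted p = 0.232). By Pearson r, and not by rho, Crhbp was most like Sst over the mice, and the part of the interneuron markers in its value was not tested. Of the 4 choroid plexus markers tested, Ttr (-1.86) and Clic6 (-1.28) were lower at an unadjusted p under 0.05 in the group-only fit, where 3.61% of all genes had one. The other 2 were Kl at -0.08 (unadjusted p = 0.816) and Kcnj13 at 0.29 (unadjusted p = 0.482).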

How the data were processed

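Full-length cDNA was amplified from total RNA (SMART-Seq v4) of the ACC of each mouse and read from one end. The authors used cutadapt 1.10 for trimming, STAR 2.5.3a for alignment to mm10 and HTSeq 0.6.1p1 for counts per gene from uniquely aligned reads on the Ensembl annotation. The strand setting is not given in the sources used here. They deposited whole-number counts, and the same counts divided by size factors as a signal per gene, which was not used here. The deposited table also holds the log2 fold changes and p-values of their own DESeq2 1.22.1 comparison, with RNA integrity and batch as covariates, none of which was used.

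Counts were tested with edgeR 4.0.16 in R 4.3.3 (TMM, glmQLFit, glmQLFTest, group as the only term), and p-values were adjusted by Benjamini-Hochberg over all 17524 genes that reached 10 counts in 10 or more mice. A gene passed at an adjusted p under 0.05. Levels are CPM on TMM-scaled library sizes. RPKM divides them by the exonic length in GENCODE M21 (GRCm38), whose coordinates are printed. Alternatives were the run of library numbers, the oligodendrocyte score, other count minima and size factors, DESeq2 1.42.0, limma 3.58.1 and left-out mice. Correlations over mice used log2 CPM (prior count 2) centred within group and run, with two-sided permutation tests of 100000 resamples within group and run. Groups come from the labels, and p-values measure the spread between mice. Counts carry no molecular identifiers, so counts measure reads and not molecules. The edgeR fits and the permutation test were checked on simulated data. The 10 genes and all lists were chosen with earlier results of these data known. The genes named are the 10, the 3 most similar genes of each, and up to 4 genes of each list with the smallest unadjusted p under 0.05. Per1, Dusp1, Lcn2, Pomc, Pvalb, Kl, Kcnj13, Hsd11b2 and the urocortin genes were named after their values were seen. Motifs were searched in promoter windows only.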

Additional observations from a re-analysis of the deposited data

Results flagged for a closer look

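In stim replicate 4, Zbtb16 stood apart from the other 9 stimulated mice at 35.2 CPM, its gap to the next mouse being 0.504 of the range of the group on the log2 scale. Each of the 10 genes was examined in the 10 stimulated mice in this way, and chance gives such a gap in about 1 of 20 groups. The log2 fold change of Zbtb16 was 0.03 with this mouse and -0.03 without it.

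The effect of stimulation on Fkbp5 differed between the runs of library numbers by -0.41 on the log2 scale (standard error 0.16, unadjusted p = 0.0189, edgeR interaction term), being 0.40 in numbers 1 to 11 and -0.06 in 12 to 23. After adjustment over all genes the p was 0.575.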

How the results depend on the processing

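The alternatives that include the run in DESeq2 or voom, or that combine the run or library numbers 12 to 23 with left-out mice, were chosen after seeing the data. After adjustment over all genes, 0 genes passed in the group-only edgeR fit, against 3 in the DESeq2 Wald test, 33 in DESeq2 with the run, 1 in voom with the run, 1 without the 2 controls highest in the oligodendrocyte score, 1 when the run was also included, and 0 to 1 when each mouse was left out, with or without the run. Nr3c2 passed only in DESeq2 with the run (-0.23), and not in edgeR or voom; the cause was not tested. Of the 10 genes, 0 had an unadjusted p under 0.05 in the group-only fit. The number was 2 with the run, with the run and the score, within either run, in DESeq2 with the run, and in both added fits without the 2 controls, and 3 in voom with or without the run. It was 0 to 2 as each mouse was left out (2.69% to 5.19% of all genes) and 2 to 4 with the run (8.91% to 14.2%). Without stim replicate 2 it was 2.

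The sign of Crh turned from -0.021 to 0.0032 with the run and 0.0059 with the score added, to 0.0035 within library numbers 12 to 23, to 0.0057 in DESeq2 and 0.0032 in voom with the run, and to 0.017 and 0.032 without the 2 controls in the fit with the run and within 12 to 23. It ranged from -0.072 to 0.023 as each mouse was left out and from -0.037 to 0.045 with the run. Fkbp5 turned to -0.057 within 12 to 23 and -0.073 there without the 2 controls, and Tsc22d3 turned to 0.029 within 1 to 11. Zbtb16 turned to -0.00055 in voom, -0.010 in voom with the run, -0.091 within 12 to 23 and -0.12 there without the 2 controls, and ranged from -0.031 to 0.047 as each mouse was left out and from -0.048 to 0.047 with the run. The run difference of Crh missed the threshold in voom (-0.19), and pairs that passed rose from 3 to 6 when values were centred within runs only. The causes were not tested. Without control replicate 9 the group-only value of Nr3c2 was -0.11. In the same fit Crhbp was 0.095 without control replicate 7, and Nr3c1 was -0.09 without stim replicate 8.

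Replicate numbers did not mark shared animals, and same-numbered deviations correlated from -0.37 to 0.63 (mean 0.31, and 0.05 once centred within group and run). With the replicate number as a block (a paired fit over replicates 1 to 10), 0 of the 10 genes had an unadjusted p under 0.05 (7.37% of all genes), Nr3c2 was -0.12 and Crhbp 0.14, and 0 genes passed after adjustment (edgeR). Some blocks set a ctrl mouse of library numbers 1 to 11 against a stim mouse of 12 to 23, so blocking did not remove the run. Between the runs Nr3c2 differed by 0.65 and Crhbp by -0.43 on the log2 scale. The part of the run in the block values was not tested. RNA integrity and batch were not used here, and counts of 113 to 359 per mouse limit the precision for Crh.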
